A study of Homo sapiens with 12 samples.

Results

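The 32 genes described here encode the enzymes, glucose carriers and complex subunits of 3 connected pathways: 20 of glycolysis, from glucose entry to lactate, 5 of the pyruvate dehydrogenase complex and 7 of the pentose phosphate pathway. They were chosen by gene name from a list drawn up by function, and are 32 of 56537 gene names in the transcript table. For each name, the FPKM (fragments per kilobase of transcript, scaled to the mapped reads of the library) of all transcripts that matched a known isoform or were a new isoform of it were added within each library. All 32 reached a summed FPKM above 0.5 in at least 3 libraries, as did 16680 names in all.

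The libraries came from HCT116, an established human colorectal carcinoma cell line, which was untreated other than by oxygen. Poly(A) RNA was sequenced strand-specifically after 0, 1, 2 and 24 h in 1% O2, with 3 libraries at each time point and 12 in all, and the 0 h libraries serve as the normoxic controls. Cells entered the hypoxia workstation a fixed time after plating, and the sources used here leave unstated if normoxic and 24 h cells had spent equal times in culture, so time in culture and time in hypoxia cannot be told apart at 24 h. The study calls the libraries of a time point biological replicates, and the sources used here do not say further what separates them, such as separate cultures, so that p-values measure the spread between these libraries.

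Glycolysis splits glucose into pyruvate in a chain of cytosolic steps that yield ATP without oxygen, and lactate dehydrogenase then turns pyruvate into lactate, restoring the NAD+ that the chain consumes. Pyruvate dehydrogenase is the mitochondrial complex that instead converts pyruvate to acetyl-CoA for oxidation. The pentose phosphate pathway diverts glucose phosphate into NADPH and ribose phosphate for nucleotides. Several glycolytic steps have paralogous enzymes encoded by different genes, and hypoxia-inducible transcription factors are known to act on many of these genes.

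The pyruvate kinase gene PKM, which catalyses the last ATP-yielding step, shows how closely related the measured forms can be. Its M1 and M2 mRNAs carry 1 of a pair of mutually exclusive exons, each 167 bases long. Exon 9 (M1) lies at chr15:72495363-72495529 and exon 10 (M2) at chr15:72494795-72494961 in GRCh37, both on the minus strand and both coding. They are printed 5′ to 3′ because the form measured below is told by which of them a transcript's nearest known isoform contains. Capitals mark the 62 positions at which they differ (62.9% identical).
M1 exon 9: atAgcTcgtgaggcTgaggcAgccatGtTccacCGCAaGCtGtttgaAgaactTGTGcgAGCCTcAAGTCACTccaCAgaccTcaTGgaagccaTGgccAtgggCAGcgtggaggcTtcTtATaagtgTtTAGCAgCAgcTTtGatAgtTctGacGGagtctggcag
M2 exon 10: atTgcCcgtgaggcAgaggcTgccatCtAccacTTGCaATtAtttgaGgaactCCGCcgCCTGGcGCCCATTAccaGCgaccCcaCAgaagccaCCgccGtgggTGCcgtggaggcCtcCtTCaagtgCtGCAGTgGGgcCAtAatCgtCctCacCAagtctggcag

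Hypoxia-inducible factors bind DNA around a short core, 1 form of which is ACGTG. In RefSeq promoter windows of 300 bases (GRCh38.p14, 250 before and 50 after a gene's start), ACGTG on either strand was present for 15 of the 31 members with a window (SLC2A3 has no entry), against 24.9% of all genes in the table, a gene counting if any of its windows held it. Members had more windows per gene (54 for 31 members, against 35116 for 27305 genes), and by window it was present in 19 of 54, against 21.4% of all windows. It was present for 8 of 14 members called higher at 24 h and for 7 of the other 17. The related GCGTG was present for 20 of 31 members and for 40.6% of all genes, with 9 of 14 members called higher and 11 of the other 17, and by window in 23 of 54, against 36.5%. The bases before the start are printed for the lactate dehydrogenase pair, whose levels went in opposite directions, and for ENO2 and PGK1, both strongly raised at 24 h. They lie at chr11:18394313-18394562 (LDHA, plus strand, the first of 2 windows), chr12:21657843-21658092 (LDHB, minus strand), chr12:6914330-6914579 (ENO2, plus strand) and chrX:78103998-78104247 (PGK1, plus strand). Capitals mark ACGTG or its reverse complement CACGT, which overlap in the palindrome CACGTG and are then counted on both strands.
LDHA: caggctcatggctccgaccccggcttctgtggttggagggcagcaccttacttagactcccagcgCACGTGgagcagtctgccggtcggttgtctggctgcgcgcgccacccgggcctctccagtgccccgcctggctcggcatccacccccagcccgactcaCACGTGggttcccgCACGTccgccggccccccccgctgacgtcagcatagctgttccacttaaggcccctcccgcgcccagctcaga
LDHB: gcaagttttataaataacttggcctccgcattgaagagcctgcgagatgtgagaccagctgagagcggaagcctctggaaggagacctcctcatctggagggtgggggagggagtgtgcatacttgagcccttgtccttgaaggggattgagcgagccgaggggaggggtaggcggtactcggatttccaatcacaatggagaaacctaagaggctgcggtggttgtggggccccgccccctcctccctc
ENO2: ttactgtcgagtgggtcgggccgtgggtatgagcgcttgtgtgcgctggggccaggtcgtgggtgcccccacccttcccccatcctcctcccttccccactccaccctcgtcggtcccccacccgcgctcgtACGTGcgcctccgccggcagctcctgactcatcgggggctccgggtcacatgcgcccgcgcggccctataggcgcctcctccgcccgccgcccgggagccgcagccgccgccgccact
PGK1: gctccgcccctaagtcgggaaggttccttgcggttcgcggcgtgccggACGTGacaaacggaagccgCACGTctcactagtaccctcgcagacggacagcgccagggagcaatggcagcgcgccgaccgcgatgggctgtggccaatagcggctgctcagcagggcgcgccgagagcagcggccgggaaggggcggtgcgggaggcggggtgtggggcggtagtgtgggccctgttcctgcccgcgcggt
The full first LDHA window held 5 such matches, the other LDHA window (chr11:18396101-18396400) 0, the LDHB window 0, the ENO2 window 1 and the PGK1 window 3. A match describes the letters of a window and does not show binding.

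Pearson correlations of log2 levels across genes were 0.965 to 0.988 between libraries of a time point and 0.905 to 0.988 between libraries of different time points. Transcripts shorter than 300 bases held between 57.0% and 87.6% of a library's summed FPKM, and read counts could not be had from FPKM, so that the precision of each value is that of the 3 libraries. Of the markers of cell types, EPCAM, KRT8, KRT18 and KRT19 were between 213.5 and 1191 FPKM in all 12 libraries and CDH1 was between 6.06 and 27.4 FPKM. CDH1 was called higher at 24 h (mean 7.42 to 26.3 FPKM, log2 fold change 1.76 ± 0.13 SE, adjusted p = 8.5e-07, limma), and KRT19 passed the adjusted p alone (log2 fold change 0.99 ± 0.11 SE, adjusted p = 1.7e-05, limma). PTPRC, CD3E, COL1A2, PDGFRB, PECAM1, VWF and CDH5, which mark blood, fibroblast and endothelial cells, did not pass the filter on low levels, but CD68 and COL1A1 were also called higher at 24 h, from 2.01 to 10.2 FPKM and from 1.92 to 6.87 FPKM. Their part in the results below was not tested, and bulk levels do not tell fewer cells of a type from less RNA per cell. All 8 genes of a list of known hypoxia targets were called higher at 24 h, by 1.90 to 5.45 on the log2 scale, among them ANKRD37 (5.45), NDRG1 (5.34), EGLN3 (3.46), ADM (3.45), BNIP3 (3.34), KDM3A (3.26) and CA9 (3.13). CA9 passed the filter on low levels only through its 24 h libraries, so that its call gives no support.

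Each time was compared with 0 h in limma, on log2(FPKM + 0.5) and with Benjamini-Hochberg adjustment over all 16680 names, and a gene was called when its adjusted p was under 0.01 and its fold change over 2. Fold changes are on that scale and understate changes of low genes. At 24 h, 15 of the 32 members were called higher and 1 lower. Over all names tested, 8.76% were called higher and 9.51% lower (1462 and 1586 names). Glycolysis supplied 14 of the 15 higher calls, with 14 of its 20 genes, 0 called lower and a median log2 fold change of 1.60. Of the 5 pyruvate dehydrogenase subunits 0 were called higher and 1 lower (median -0.61), and of the 7 pentose phosphate genes 1 was called higher and 0 lower (median -0.22). The median over all names was -0.05.

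With the adjusted p alone, at any fold, 18 glycolytic genes were higher and 1 lower, 3 subunits were lower, and the pentose phosphate genes divided into 2 higher and 3 lower. That criterion was met by 18.3% of all names for higher and 23.2% for lower levels. The 3 libraries at 24 h lay all above the 3 at 0 h for 18 glycolytic and 2 pentose phosphate genes (27.6% of all names), and all below for 2 glycolytic genes, 4 subunits and 3 pentose phosphate genes (32.8% of all names). Rescaling all transcripts to TPM (each transcript's length-scaled share of a library), which divides by a total made up largely of transcripts under 300 bases, lowered the median change of all names to -0.78 and turned the split of calls to 209 higher and 3995 lower. Under it 5 glycolytic genes were called higher, and with transcripts under 300 bases left out of the TPM total the median of all names was -0.13.

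**Figure D1:**
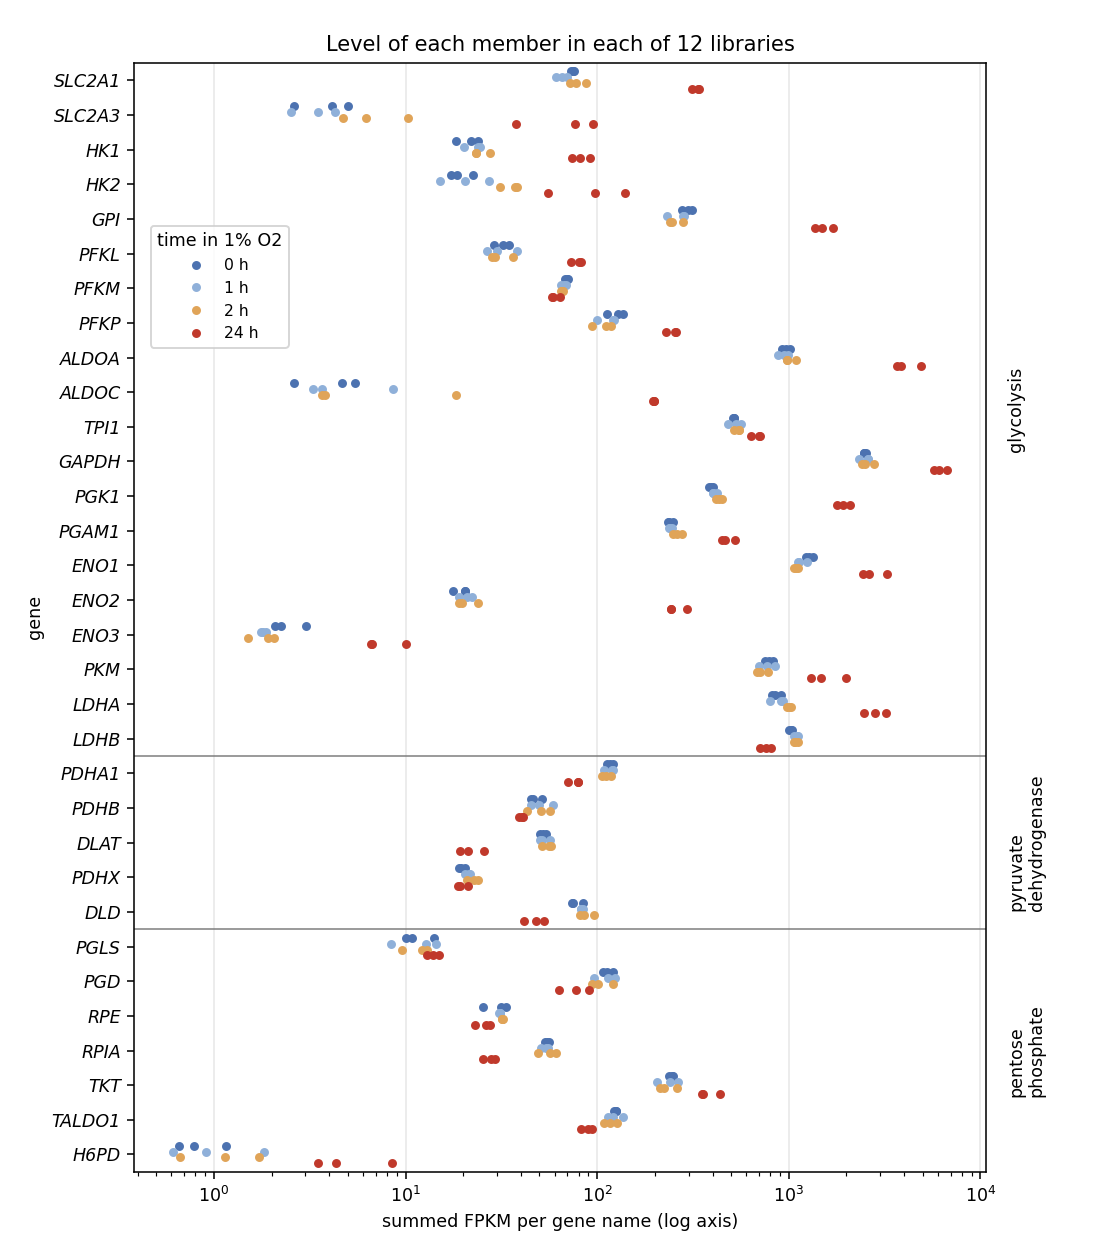
Summed FPKM of each of the 32 genes in each of the 12 libraries, on a log axis, coloured by time in 1% O2, with glycolytic, pyruvate dehydrogenase and pentose phosphate genes set apart by lines. The 24 h points lie to the right of the 0 h points for 18 of 20 glycolytic genes, and to the left for 4 of 5 pyruvate dehydrogenase subunits.

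At the earlier times no member was called. At 1 h, 0 of 32 had an unadjusted limma p under 0.05, against 4.61% of all names, and 1 gene was called among all names (0.006%). At 2 h, 1 of 32 had an unadjusted p under 0.05, against 15.3% of all names, and 3 genes were called among all names (0.018%). The member with the largest fitted change at 2 h was HK2, at 0.86 ± 0.28 (SE) on the log2 scale with an adjusted p of 0.21 in limma. The 2 h libraries lay all above those at 0 h for 5 of the 32 members and all below for 3 (PFKM, ENO1 and ENO3). No share over all names was computed for this at 2 h, so that these counts are not read further.

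**Figure D2:**
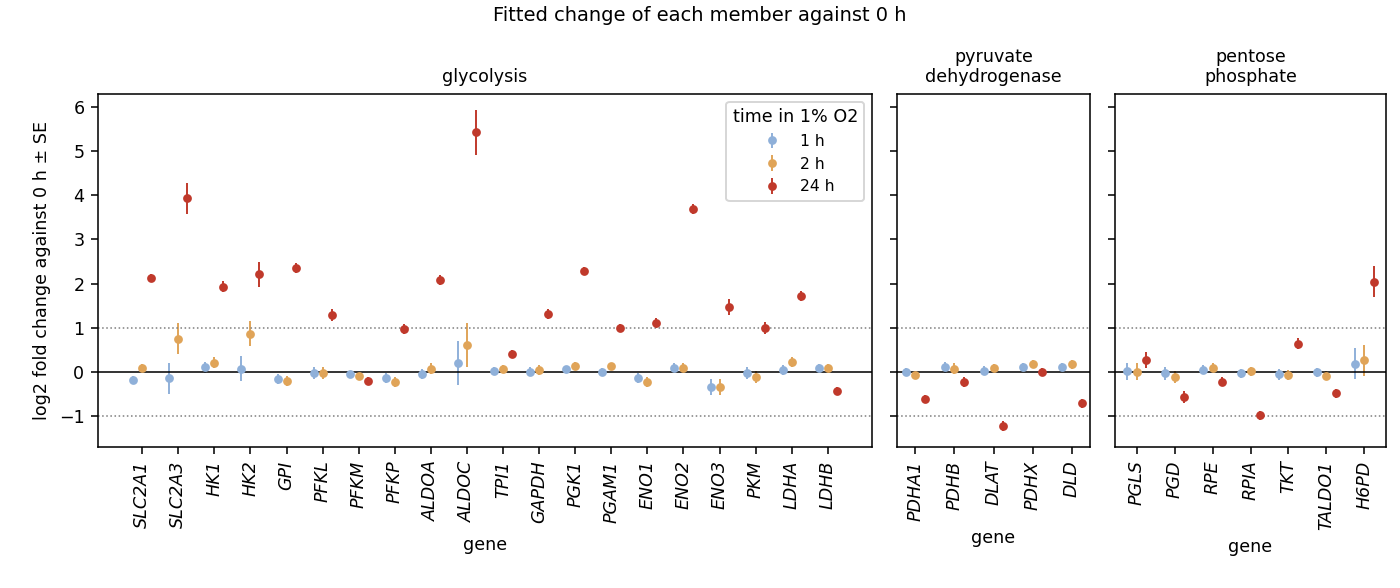
Fitted log2 fold change of each gene against 0 h at 1, 2 and 24 h, with bars of 1 standard error, and dotted lines at a 2-fold change. Changes at 1 h and 2 h lie between -0.34 and 0.86, while the 24 h changes of glycolytic genes reach 5.43 (ALDOC) and the lowest belongs to DLAT (-1.23).

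Glucose enters through carriers of the SLC2A family, and both carriers on the list rose at 24 h. SLC2A1 (GLUT1, the widespread basal carrier) measured 75.7, 74.8 and 73.1 FPKM at 0 h, between 60.7 and 87.7 FPKM at 1 h and 2 h, and 334.5, 311.4 and 340.7 FPKM at 24 h. Its 24 h level was 4.41 times the 0 h level (log2 fold change 2.13 ± 0.09 SE, adjusted p = 3.1e-08, limma). SLC2A3 (GLUT3, a high-affinity carrier best known from neurons) was much lower, with 4.14, 5.00 and 2.61 FPKM at 0 h and 37.9, 76.3 and 95.3 FPKM at 24 h. The 3 libraries at 24 h differed by over 2-fold among themselves but all lay above every earlier library, whose highest value was 10.3 FPKM at 2 h (log2 fold change 3.93 ± 0.35 SE, adjusted p = 3.0e-06, limma). SLC2A3 supplied 4.97% ± 1.42 (SD, n = 3) of the summed FPKM of the pair at 0 h and 17.2% ± 6.21 at 24 h. SLC2A14 is a close copy of SLC2A3 with which reads may be shared, so that the split between them is uncertain.

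Hexokinase traps glucose as glucose phosphate, and both forms on the list rose. HK1, the housekeeping form, had 18.3, 23.9 and 21.9 FPKM at 0 h and 91.4, 74.3 and 81.7 FPKM at 24 h (log2 fold change 1.93 ± 0.13 SE). HK2, the inducible form of muscle and many tumours, had 22.6, 18.6 and 17.2 FPKM at 0 h and 27.3, 20.5 and 15.1 FPKM at 1 h. It measured 37.4, 31.2 and 38.3 FPKM at 2 h and 55.5, 97.1 and 139.7 FPKM at 24 h (log2 fold change 2.21 ± 0.28 SE, adjusted p = 4.3e-05, limma). The 3 libraries of HK2 at 2 h lay above all 3 at 0 h, but the change at 2 h did not pass the test. The HK2 share of the pair was 47.7% ± 6.52 (SD, n = 3) in normoxia, 59.0% ± 2.36 after 2 h and 52.5% ± 13.2 after 24 h.

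Glucose phosphate isomerase, GPI, rose from 277.3, 298.2 and 313.2 FPKM at 0 h to 1492, 1367 and 1696 FPKM at 24 h, which is 5.12 times the 0 h level (log2 fold change 2.35 ± 0.11 SE, adjusted p = 6.2e-08, limma). It was the largest fitted change among the steps that a single listed gene serves, but close to that of PGK1 (2.29 ± 0.08 SE). Without the third 24 h library the log2 change was 2.27 for GPI and 2.34 for PGK1. Summed over assembled loci it was 2.25 and 2.29, and the GPI locus also holds PDCD2L.

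Phosphofructokinase, the main point of control of the pathway, is a tetramer of liver (PFKL), muscle (PFKM) and platelet (PFKP) subunits, and its 3 genes did not keep their proportions. PFKL rose from 28.8, 32.3 and 34.8 FPKM to 82.8, 73.3 and 80.6 FPKM (log2 fold change 1.29 ± 0.14 SE). PFKP, the most abundant of the 3, went from 136.5, 128.3 and 112.7 FPKM to 257.8, 227.6 and 255.5 FPKM, which passed the adjusted p at a fold change just under 2 (log2 0.97 ± 0.12 SE, adjusted p = 2.7e-05, limma). Its log2 fold change ranged from 0.90 to 1.03 as each library in turn was left out, and was over 1 without the first 0 h library or the second 24 h library. PFKM went from 68.2, 70.6 and 69.8 FPKM to 58.5, 59.1 and 63.7 FPKM, with all 24 h values below all 0 h values, and did not pass the test (log2 fold change -0.20 ± 0.07 SE, adjusted p = 0.033, limma). The PFKM share of the step went from 30.6% ± 1.47 (SD, n = 3) to 15.7% ± 0.912, and at 24 h PFKM was the lowest of the 3 in FPKM in every library.

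Aldolase cleaves the phosphorylated sugar into a pair of 3-carbon sugars. ALDOA, the muscle and general form, rose from 1014, 965.7 and 924.8 FPKM at 0 h to 4878, 3671 and 3835 FPKM at 24 h (log2 fold change 2.08 ± 0.12 SE). ALDOC, the brain form, measured 2.62, 4.66 and 5.46 FPKM at 0 h and 197.0, 197.2 and 195.1 FPKM at 24 h, which gave the largest change of any member (log2 fold change 5.43 ± 0.50 SE, adjusted p = 4.1e-06, limma). At 2 h, ALDOC was 3.65 and 3.82 FPKM in the first and second libraries but 18.3 FPKM in the third. The assembled locus of ALDOC also holds KIAA0100, SGK494 and SPAG5, and summed over that locus the log2 change was 1.81. ALDOC still supplied only 4.61% ± 0.641 (SD, n = 3) of aldolase FPKM at 24 h, against 0.442% ± 0.168 at 0 h.

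The middle of the pathway runs through single abundant enzymes. TPI1, which interconverts the 3-carbon sugars, was among the least altered, from 517.8, 512.9 and 517.2 FPKM to 702.4, 705.5 and 634.7 FPKM (log2 fold change 0.40 ± 0.09 SE, adjusted p = 0.0020, limma), and its sign turned under TPM (-0.47, still above the shifted median). GAPDH, which makes NADH at the oxidative step and is widely used as a reference gene, rose from 2527, 2465 and 2462 FPKM to 5728, 6090 and 6685 FPKM (log2 fold change 1.31 ± 0.10 SE). PGK1, which makes the first ATP, rose from 403.3, 383.8 and 393.9 FPKM to 1908, 2094 and 1775 FPKM (log2 fold change 2.29 ± 0.08 SE, adjusted p = 1.3e-08, limma). The PGK1 values at 2 h, 419.3 to 449.4 FPKM, lay all above those at 0 h without passing the test. PGAM1, a mutase, went from 233.8, 237.8 and 249.8 FPKM to 525.7, 465.5 and 446.3 FPKM, at a fold change just under 2 (log2 0.99 ± 0.09 SE, adjusted p = 2.4e-06, limma). Its log2 fold change ranged from 0.92 to 1.04 as each library in turn was left out, and passed 1 without the third 0 h library and without the second or the third 24 h library. GAPDH, PGK1, ENO1, PGAM1 and other abundant members have near-identical pseudogene copies, and how reads were divided among them is uncertain. PGAM4, such a copy, was at 31.4 to 35.1 FPKM at 0 h and 46.8 to 74.5 FPKM at 24 h.

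Enolase makes phosphoenolpyruvate, and its neuronal form rose much further than its general form. ENO1, the general form, rose from 1335, 1282 and 1231 FPKM to 3251, 2610 and 2434 FPKM (log2 fold change 1.10 ± 0.11 SE), and its log2 fold change ranged from 0.97, under the fold threshold, without the first 24 h library to 1.18 without the third. ENO2, the neuronal form at chr12:7022909-7032861 (GRCh37), had 20.4, 20.5 and 17.7 FPKM at 0 h, between 19.0 and 23.9 FPKM at 1 h and 2 h, and 242.7, 242.4 and 292.7 FPKM at 24 h. That was 13.3 times the 0 h level, with the smallest adjusted p of the members (log2 fold change 3.69 ± 0.12 SE, adjusted p = 5.8e-09, limma). Summed over its assembled locus, which also holds ATN1 and LRRC23, the log2 change was 2.19. ENO3, the muscle form, rose from 3.02, 2.24 and 2.09 FPKM to 10.0, 6.70 and 6.61 FPKM (log2 fold change 1.48 ± 0.18 SE). ENO2 supplied 1.50% ± 0.0747 (SD, n = 3) of enolase FPKM at 0 h and 8.70% ± 1.90 at 24 h.

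PKM went from 751.0, 786.6 and 827.5 FPKM at 0 h to 1987, 1471 and 1311 FPKM at 24 h, at a fold change just under 2 (log2 0.99 ± 0.14 SE, adjusted p = 8.9e-05, limma). Its log2 fold change ranged from 0.82 without the first 24 h library to 1.12 without the third, and was also over 1 without the third 0 h library or the second 24 h library (1.03 for each). Each transcript was assigned to M1 or M2 by the exons of its nearest known isoform. For a new isoform the exon itself was thus not read. Transcripts assigned to M2 had 648.2 ± 30.0 FPKM (SD, n = 3) at 0 h and 1303 ± 278.0 FPKM at 24 h. Those assigned to M1 had 59.2 ± 5.86 FPKM and 130.0 ± 40.5 FPKM. The M2 share of the 2 forms was 91.6% ± 0.644 in normoxia and 91.1% ± 0.385, 92.0% ± 1.43 and 91.0% ± 0.836 after 1, 2 and 24 h. No difference in this share over time was detected (exact permutation test over the 15400 ways of dividing 12 libraries among the time points, p = 0.54), and the 24 h and 0 h values overlapped. The share at 24 h differed from that at 0 h by -0.59 percentage points, by -1.74 (p = 0.061, exact permutation) in transcripts that match a known isoform in full, and by -1.02 to -0.19 as each library in turn was left out.

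**Figure D3:**
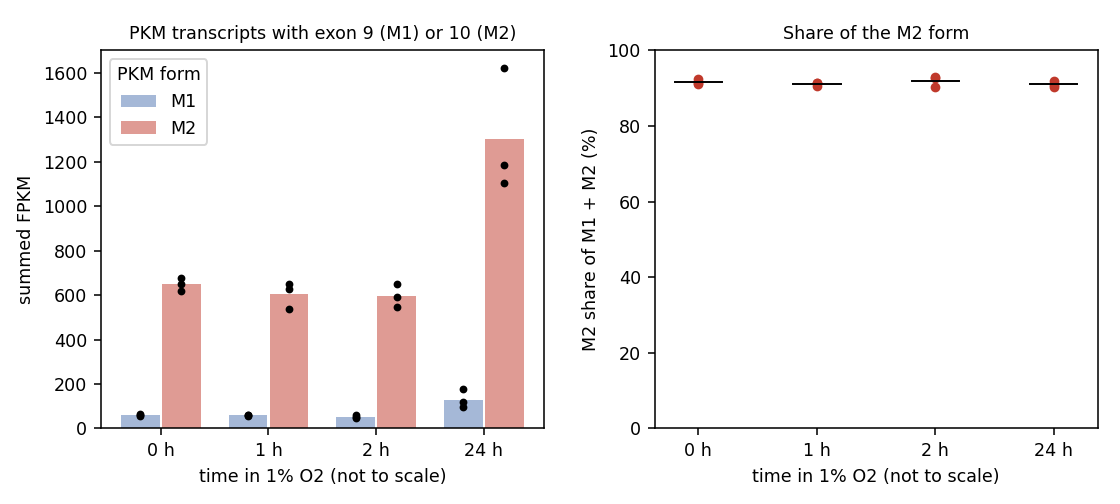
Left, summed FPKM at each time of PKM transcripts whose nearest known isoform has exon 9 (M1) or exon 10 (M2). Bars are at the mean and points are the 3 libraries. Right, the M2 share of the 2 forms in percent, with a line at the mean, which stayed between 90.2% and 92.9% in all 12 libraries while both forms had more FPKM in every 24 h library than at 0 h.

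Lactate dehydrogenase is a tetramer of A chains, which favour lactate production, and B chains, which favour its oxidation, and the genes of the 2 chains diverged. LDHA rose from 908.2, 818.3 and 843.8 FPKM at 0 h to 3229, 2810 and 2454 FPKM at 24 h (log2 fold change 1.72 ± 0.11 SE, adjusted p = 4.0e-07, limma). LDHB measured 1028, 997.6 and 1046 FPKM at 0 h and 764.9, 812.3 and 704.9 FPKM at 24 h, a difference that passed the adjusted p at less than 2-fold (log2 fold change -0.43 ± 0.08 SE, adjusted p = 0.00097, limma). LDHB was the more abundant of the pair in all 3 libraries at 0 h and the less abundant in all 3 at 24 h. The LDHA share of the step was 45.5% ± 1.20 (SD, n = 3) at 0 h and 78.7% ± 1.86 at 24 h. At 2 h, when LDHA lay between 973.4 and 1027 FPKM and LDHB between 1069 and 1113 FPKM, both were above every 0 h value without passing the test.

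Whether paralogues of a step kept their proportion was tested on the log2 ratio of their FPKM, for 10 pairs, with the exact permutation test over time points and Benjamini-Hochberg adjustment over the 10 (smallest p possible 6.49e-05). For 8 of the 10 pairs the ratio varied over time at an adjusted p under 0.05. No such share was computed for other pairs of genes, so that this count is not read as particular to these enzymes. The pairs of phosphofructokinase and of enolase share genes, and are not separate results. LDHA against LDHB went from -0.26 ± 0.07 (SD, n = 3) to 1.89 ± 0.16 on the log2 scale (adjusted p = 0.0061, exact permutation). ENO2 against ENO1 went from -6.00 ± 0.07 to -3.41 ± 0.34, and ENO3 against ENO2 from -2.77 ± 0.19 to -4.99 ± 0.43 (adjusted p = 0.0045 for each, exact permutation). ALDOC against ALDOA gained 3.35 (adjusted p = 0.020), SLC2A3 against SLC2A1 gained 1.80 (0.016), and PFKP against PFKM gained 1.17 (0.018), all by the exact permutation test.

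PFKM against PFKL dropped by 1.50 (adjusted p = 0.021, exact permutation) and the 2 groups of libraries did not overlap. ENO3 against ENO1 gained 0.38 (adjusted p = 0.018, exact permutation), at low levels of ENO3, and without the first 24 h library it was 0.32 (adjusted p = 0.053). It was 0.24 (adjusted p = 0.055) at a pseudocount of 1, and 0.92 in transcripts that pass the filter by themselves (adjusted p = 0.028, exact permutation). SLC2A3 against SLC2A1 gained 1.97 in transcripts that match a known isoform in full, at an adjusted p of 0.076 (exact permutation). HK2 against HK1 did not vary beyond its spread (difference 0.28, adjusted p = 0.44, exact permutation), and without the third 24 h library the difference was -0.03. PFKP against PFKL had a difference of -0.32 (adjusted p = 0.60, exact permutation). For 24 h against 0 h alone, 3 libraries against 3 cannot give an exact two-sided p below 0.10, which every pair reached other than HK2 against HK1 (p = 0.60). That too was not set against other pairs of genes.

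**Figure D4:**
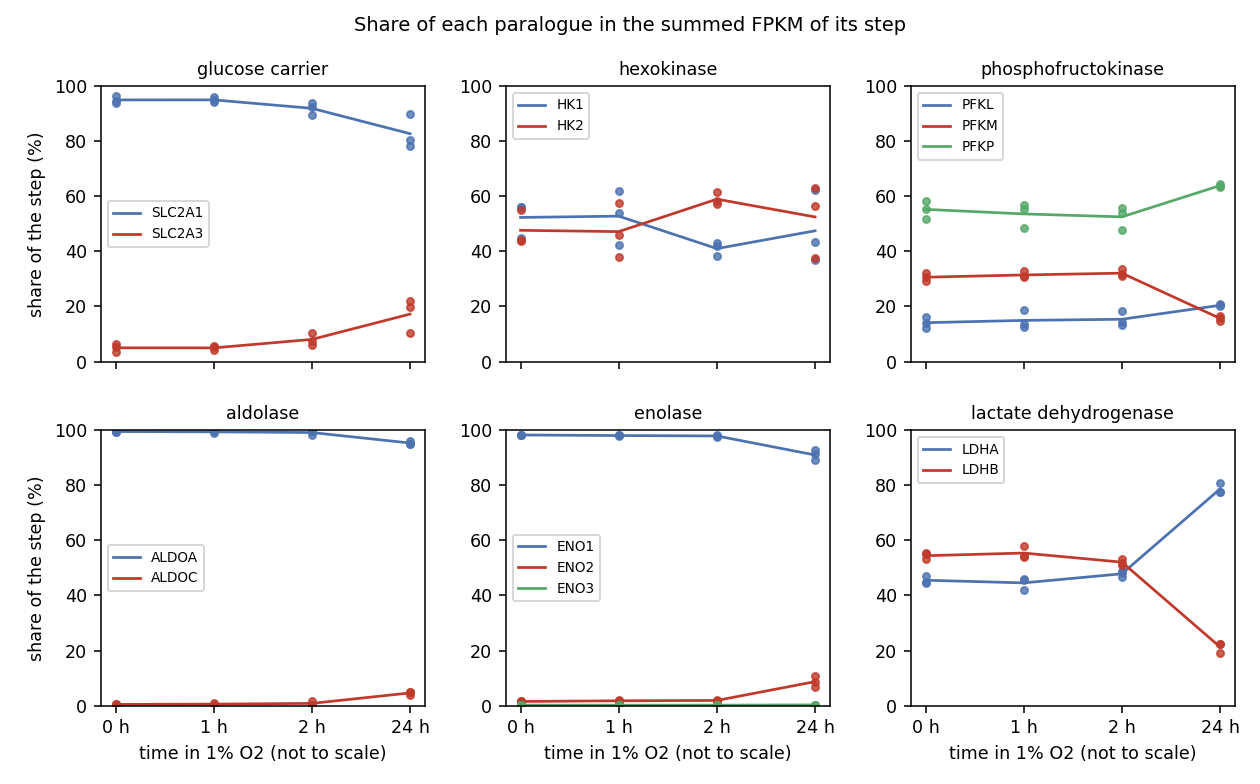
Share of each paralogue in the summed FPKM of its step, in percent, at each time (axis not to scale), with points for the 3 libraries and lines through the means. LDHA passes LDHB between 2 h and 24 h, PFKM drops below PFKL, and SLC2A3, ALDOC and ENO2 remain minor forms at 17.2%, 4.61% and 8.70%.

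Added together, the 20 glycolytic genes held 1.46% ± 0.0319 (SD, n = 3) of the normoxic FPKM of transcripts of at least 300 bases. This share was 1.43% ± 0.0564 and 1.46% ± 0.0715 after 1 h and 2 h, and reached 3.68% ± 0.291 after 24 h. GAPDH alone went from 0.395% ± 0.00773 to 0.940% ± 0.152. Among 16267 names ranked by FPKM, GAPDH moved from ranks 6 to 7 at 0 h to ranks 2 to 4 at 24 h. ALDOA moved from ranks 90 to 92 to ranks 6 to 8, LDHA from 97 to 105 to 10 to 16, and ALDOC from 9623 to 11694 to 437 to 497. The pyruvate dehydrogenase subunits together held 0.0499% ± 0.00289 at 0 h and 0.0313% ± 0.00316 at 24 h. The pentose phosphate genes held 0.0920% ± 0.00567 and 0.0937% ± 0.00757.

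Pyruvate dehydrogenase is built of a decarboxylase (PDHA1 and PDHB), an acetyltransferase core (DLAT) with its binding protein (PDHX), and the dehydrogenase DLD, which other complexes share. DLAT fell from 52.4, 50.0 and 53.8 FPKM at 0 h to 19.3, 21.1 and 25.6 FPKM at 24 h, and was the only member called lower (log2 fold change -1.23 ± 0.11 SE, adjusted p = 2.4e-06, limma). It was between 50.5 and 57.4 FPKM at 1 h and 2 h. PDHA1, the catalytic subunit, measured 116.4, 121.1 and 113.1 FPKM at 0 h and 79.4, 79.5 and 70.9 FPKM at 24 h, and DLD 74.5, 74.05 and 84.2 FPKM and 41.3, 47.9 and 52.6 FPKM. Both passed the adjusted p at less than 2-fold (log2 fold change -0.61 ± 0.08 SE for PDHA1 and -0.71 ± 0.10 SE for DLD). PDHB had 45.0, 46.1 and 51.7 FPKM at 0 h and 39.0, 40.7 and 41.2 FPKM at 24 h, all below the 0 h values, but did not pass the test (log2 fold change -0.24 ± 0.12 SE, adjusted p = 0.12, limma). PDHX measured 19.1, 19.5 and 20.4 FPKM and 19.3, 21.2 and 18.8 FPKM (log2 fold change 0.00 ± 0.09 SE), and these overlapped.

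Much of the FPKM of DLAT, DLD and PDHA1 belonged to transcripts with no full coding annotation. This was not particular to these subunits. Noncoding types held 87.4% of typed FPKM at 0 h for PGK1 and 52.0% for TKT, and 60.7% and 62.6% of their FPKM had no type. The leading DLAT and DLD transcripts, with 54.7% and 44.8% of their gene's FPKM at 0 h, are annotated as targets of nonsense-mediated decay. A retained-intron transcript of 709 bases held 40.4% of PDHA1 FPKM at 0 h and 41.3% at 24 h. The leading PDHA1 transcript at 0 h was a new isoform, with 46.2% of FPKM. Transcripts without a type held 45.6% of PDHA1 FPKM over the 12 libraries, and count below neither as coding nor as noncoding. Protein-coding transcripts of PDHA1 measured 10.9 ± 0.331 FPKM (SD, n = 3) at 0 h and 5.31 ± 1.03 FPKM at 24 h, those of DLAT 22.5 ± 1.91 FPKM and 10.7 ± 2.72 FPKM, and those of DLD 40.8 ± 7.49 FPKM and 25.9 ± 5.20 FPKM.

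The complex is switched off by kinases (PDK1 to PDK4) and on by phosphatases. Of 7 such regulators, 3 were called higher and 0 lower at 24 h (8.76% and 9.51% of all names). PDK1 rose from 3.62, 1.77 and 2.19 FPKM to 20.1, 20.5 and 27.2 FPKM (log2 fold change 2.96 ± 0.23 SE, adjusted p = 1.3e-06, limma). PDK3 (1.91) and PDK4 (1.61), which the text names because few genes of the list were called and after their values were seen, rose to 12.4 and 1.51 FPKM. PDK4 passed the filter on low levels only through its 24 h libraries, so that its call gives no support and leaves 2 of the 7. PDK2 (log2 fold change -0.09), PDP1 (0.35), PDP2 (-0.38) and PDPR (0.23) did not pass the test.

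Of 5 carriers of pyruvate and lactate, 0 were called higher and 2 lower (8.76% and 9.51% of all names), both named after their values were seen. MPC1, a subunit of the mitochondrial pyruvate carrier, fell from 17.2, 19.8 and 18.6 FPKM to 10.4, 9.87 and 5.55 FPKM (log2 fold change -1.11 ± 0.19 SE). SLC16A1 (MCT1, which moves lactate across the cell membrane) fell from 95.2, 81.2 and 83.1 FPKM to 38.5, 37.9 and 47.6 FPKM (log2 fold change -1.06 ± 0.13 SE). SLC16A3 (MCT4, the lactate exporter of glycolytic tissues) had a log2 fold change of 0.86 ± 0.09 SE and passed the adjusted p alone, at 8.9e-06 in limma. SLC16A7 (-0.28) and MPC2 (-0.55) did not pass.

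**Figure D5:**
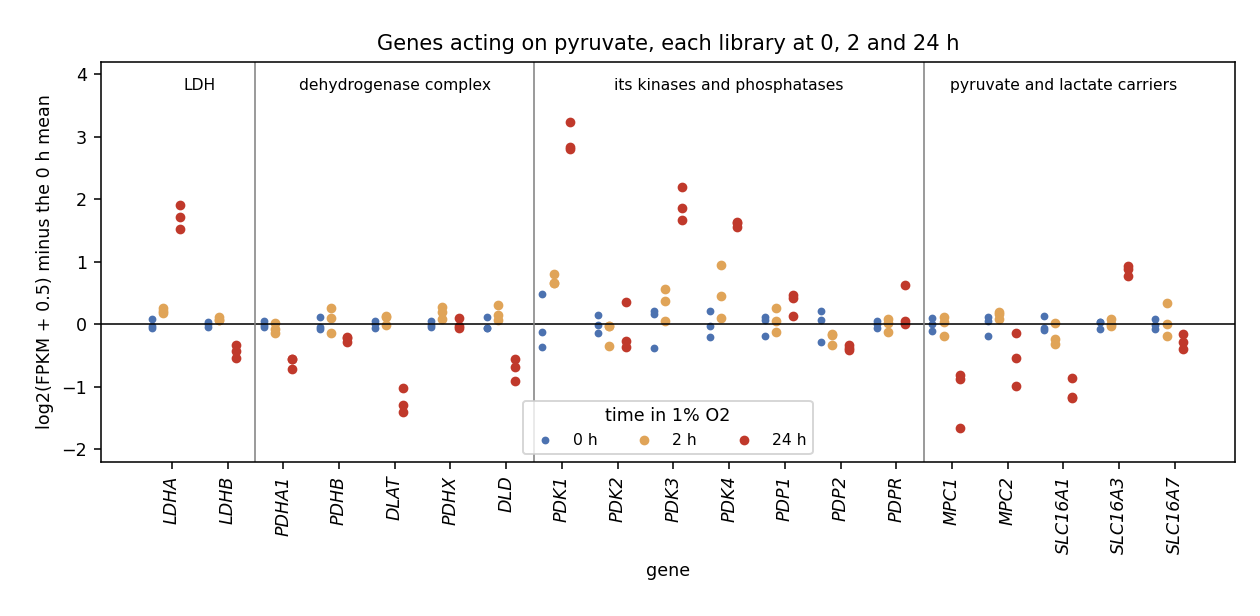
Each library's log2(FPKM + 0.5) minus the 0 h mean of the gene, at 0, 2 and 24 h, for the lactate dehydrogenase genes, the pyruvate dehydrogenase subunits, the kinases and phosphatases that act on the complex, and the carriers of pyruvate and lactate. LDHA, PDK1, PDK3 and PDK4 are raised in every 24 h library and DLAT, MPC1 and SLC16A1 are lowered in every one, while PDHX overlaps its 0 h values.

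Among the pentose phosphate genes, those that passed the adjusted p lay on both sides of 0. In the oxidative branch, H6PD, the enzyme of the endoplasmic reticulum, was the only pathway gene called higher. It was near the filter at 0.657, 0.786 and 1.16 FPKM at 0 h and reached 3.49, 4.33 and 8.52 FPKM at 24 h (log2 fold change 2.05 ± 0.35 SE, adjusted p = 0.00035, limma). PGD, the phosphogluconate dehydrogenase that yields NADPH in the cytosol, went the other way, from 107.2, 112.9 and 120.7 FPKM to 90.7, 77.4 and 63.0 FPKM (log2 fold change -0.57 ± 0.14 SE, adjusted p = 0.0047, limma), under the 2-fold threshold. PGLS, the lactonase between them, had 10.0, 10.8 and 14.0 FPKM and 13.0, 13.9 and 14.9 FPKM, which overlapped (log2 fold change 0.27 ± 0.19 SE, and -0.54 under TPM).

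In the non-oxidative branch, which rearranges sugars between ribose phosphate and glycolysis, RPIA, the isomerase that makes ribose phosphate, was at 0.501 times its 0 h level at 24 h, just short of the fold threshold. It measured 54.7, 56.3 and 53.6 FPKM at 0 h and 25.3, 29.4 and 27.8 FPKM at 24 h (log2 fold change -0.99 ± 0.10 SE, adjusted p = 6.1e-06, limma). As each library in turn was left out it ranged from -0.93 to -1.03, past the threshold without the third 0 h library (-1.002) and without the second 24 h library (-1.03). TALDO1 (transaldolase) went from 125.8, 121.8 and 125.5 FPKM to 94.4, 89.3 and 82.0 FPKM (log2 fold change -0.49 ± 0.09 SE, adjusted p = 0.00090, limma). TKT (transketolase), by far the most abundant of this branch, went from 237.8, 245.8 and 248.8 FPKM to 438.8, 355.3 and 351.1 FPKM (log2 fold change 0.64 ± 0.12 SE, adjusted p = 0.00080, limma, and -0.24 under TPM, still above the shifted median). RPE, the epimerase, had 25.4, 31.4 and 33.3 FPKM and 23.0, 27.5 and 26.2 FPKM, which overlapped (log2 fold change -0.22 ± 0.11 SE).

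Of 10 listed neighbours of the pathway 6 passed the filter, RPEL1 and TIGAR have no values here, and those called are named after their values were seen. At 24 h, 1 of the 6 was called higher and 2 lower (8.76% and 9.51% of all names). PGM1, which links glucose phosphate to glycogen, rose by 1.85 ± 0.17 (log2, SE). PRPS1, which uses ribose phosphate to begin nucleotide synthesis, fell by 1.24, from 71.5, 67.9 and 65.4 FPKM to 30.5, 28.6 and 26.5 FPKM, and SHPK, a sugar kinase, fell by 1.31. RBKS (-0.10), PRPS2 (-0.33) and PGM2 (-0.20) did not pass the test.

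Most other paralogues of the glycolytic steps were hardly expressed, since 10 of 24 passed the filter. Of these 10, 2 glucose carriers were called higher and 1 gene lower (8.76% and 9.51% of all names). SLC2A12 rose from 0.109, 0.0776 and 0.319 FPKM to 3.88, 3.79 and 4.10 FPKM (log2 fold change 2.74 ± 0.28 SE), and SLC2A14 by 2.41 ± 0.32. SLC2A12 passed the filter only through its 24 h libraries, so that its call gives no support. ADPGK, a glucokinase that uses ADP and is named after its value was seen, fell by 1.14 ± 0.17. SLC2A2, the liver form of the glucose carrier, and LDHAL6B were listed at 0 in all 12 libraries.

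The 32 genes comprised 582 transcripts, from 2 (RPIA) to 62 (PFKM) a gene, and the leading transcript was the same at 0 h and 24 h for 28 of them. It changed for ALDOA, ENO3, LDHA and PDHA1. For LDHA, 2 transcripts held 35.7% and 34.7% of FPKM at 0 h and 36.4% and 36.7% at 24 h, so that the change of leader was within a near-tie. For ALDOA, a retained-intron transcript of 801 bases went from 194.6 ± 10.4 FPKM (SD, n = 3) to 1038 ± 146.1 FPKM, or from 20.1% to 25.2% of the gene. Since the study asked about noncoding isoforms, the share of noncoding types in the FPKM of typed transcripts was tested over time for the 30 members that have both kinds.

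None of the 30 shares varied at an adjusted p under 0.05 by the exact permutation test, and 6 had an unadjusted p under 0.05. The share was higher at 24 h for 14 and lower for 15, with a median difference of 0.00 percentage points. The 24 h libraries lay all above the 0 h libraries for 5 of the 30 members, against 14.1% of the 9640 names past the filter with both kinds, and all below for 0, against 7.49%. These 5 were ALDOA (36.7% ± 1.30 to 42.8% ± 1.28, SD, n = 3), ENO1 (0.241% ± 0.118 to 0.789% ± 0.184), ENO2 (3.90% ± 2.47 to 10.8% ± 3.24), ENO3 (22.6% ± 6.96 to 38.8% ± 4.26) and PDHA1 (82.7% ± 0.546 to 88.3% ± 3.21). The lowest adjusted p was 0.18, for ALDOA and PDHA1 (exact permutation), and 45.6% of PDHA1 FPKM belonged to transcripts without a type. In both kinds of transcript ALDOA was raised at 24 h, from 606.0 ± 30.8 to 2324 ± 337.7 FPKM in coding and from 352.0 ± 21.9 to 1744 ± 310.5 FPKM in noncoding transcripts.

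The members are spread over the genome, with 6 of the 32 on chromosome 12. Of these, GAPDH (chr12:6643678-6647540), TPI1 (chr12:6976283-6980112) and ENO2 (chr12:7022909-7032861, all GRCh37) lie close together, and their log2 fold changes at 24 h were 1.31, 0.40 and 3.69.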

How the data were processed

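Poly(A) RNA from HCT116 cells was sequenced as 12 libraries. Per the paper's methods and the labels, the authors aligned paired reads to hg19 (GRCh37) with Mapsplice, assembled transcripts with Cufflinks in strand-specific mode, merged them with Ensembl models and deposited FPKM per transcript, with a table that pairs each transcript with a gene name and a class code. The submitters' processing notes also list CASAVA 1.8.2. Cufflinks estimates how reads divide among isoforms, and FPKM of short transcripts can be inflated.

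Here FPKM of transcripts with class code = or j was summed per gene name, names with summed FPKM above 0.5 in at least 3 libraries were kept (16680), and log2(FPKM + 0.5) was fitted for all 12 libraries with limma 3.58.1 (R 4.3.3, eBayes with trend), without a replicate block. Genes were called at an adjusted p under 0.01 and over 2-fold. The samples were grouped by the time in their titles. Ratios and shares were tested by exact permutation (Python 3.11.15, numpy 2.4.6) at an adjusted p under 0.05. Transcript types came from GENCODE (GRCh37). The scripts were tested on simulated data.

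Every member is named, and from neighbouring lists (other paralogues, regulators, carriers, pentose neighbours, hypoxia targets) the called genes, at most the 10 with the largest changes. Other genes of these lists in the text were either not called or named after their values were seen. The members and lists were chosen with earlier results of these data known. Alternatives changed the pseudocount, filters, transcript classes, scaling, threshold, fit and libraries. Opposite-strand transcripts entered only the alternative that sums every class code of a name. Depth in reads is unknown from FPKM, and the replicate spread is the precision given.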

Additional observations from a re-analysis of the deposited data

Results flagged for a closer look

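An assembled transcript of 832 bases on the strand opposite to PGK1 had a higher level at 24 h than in the 0 h controls. It entered only the alternative that sums every class code of a name. The transcript measured 0.109, 0.0884 and 0.185 FPKM at 0 h and 1.02, 0.558 and 0.779 FPKM at 24 h (mean 0.784), with no overlap, and 0.0975 to 0.522 FPKM at 1 h and 2 h. PGK1 itself, on the other strand, measured 383.8 to 403.3 FPKM at 0 h and 1775 to 2094 FPKM at 24 h, so that both strands were higher at 24 h. The difference was not tested.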

How the results depend on the processing

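Of the 32 members, 28 kept the direction of their 24 h change under all 22 alternatives, and 10 also kept their side of the threshold. Under TPM over all transcripts, glycolytic genes called higher went from 14 to 5, subunits called lower from 1 to 3, pentose phosphate genes called lower from 0 to 2, and the log2 change reversed for TPI1 (-0.47), PDHX (-0.81), PGLS (-0.54) and TKT (-0.24). That scaling divides by a total largely made of transcripts under 300 bases. In TPM over transcripts of at least 300 bases, 1 pentose phosphate gene was called lower and PDHX was -0.088. PDHX, near 0, also changed sign when a library was left out (-0.047 to 0.038). Dropping the fold threshold gave 6927 calls in place of 3048 over all names, 27 in place of 16 members, 1 glycolytic gene lower, 3 subunits lower, and 2 pentose phosphate genes higher and 3 lower. Leaving out 1 library gave 0 to 1 pentose phosphate genes called lower. Leaving out 1 library moved the 24 h difference of HK2 against HK1 between -0.033 and 0.71, and that of the DLD noncoding share between -6.35 and 0.651 percentage points, each reversed without the third 24 h library. The M2 share of PKM differed by -1.74 percentage points in transcripts that match a known isoform in full, against -0.59, and by -1.02 to -0.19 with 1 library left out. The number of pairs whose ratio varied stayed within 1.5 times (6 to 8 of 10), though ENO3 against ENO1 was 0.24 at a pseudocount of 1 (adjusted p = 0.055) and 0.92 in transcripts past the filter, against 0.38, and the count of varying noncoding shares stayed at 0 in every alternative run.

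At 1 h, 1 gene was called over all names, and 0 were with no filter, with transcripts of at least 300 bases, with TPM over those, with the replicate block, or with the 6 libraries of the contrast, while TPM gave 28. At 2 h, 3 were called, against 6 at a pseudocount of 0.1, 0 with no filter, 5 with transcripts past the filter, 7 with transcripts of at least 300 bases, 5 in TPM over those, 540 in TPM, 1 without the trend and 0 with the 6 libraries alone. Leaving out 1 library gave 0 to 1 calls at 1 h and 0 to 6 at 2 h. No member was called at 1 h or 2 h under any alternative run, and the cause of the differences was not tested.

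Libraries with the same number deviated together only in part (mean correlation of deviations 0.15 over 18 pairs of libraries, above 0.1 in 10, and 10 of 12 libraries correlated best with their own number), which is a hint from the data and not from the design. With the replicate number as a block, 3106 names and 16 members were called at 24 h, against 3048 and 16 without it, with 3040 names shared. In the blocked exact test 6 of the 10 ratios passed, against 8 without the block: the ratio of PFKM to PFKL had an adjusted p of 0.061 and that of ENO3 to ENO1 of 0.052.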
